A study of Mus musculus with 7 samples.

Results

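The mRNAs of polyamine metabolism were examined in the CIRS-seq data of E14 mouse ESCs, a line of embryonic stem cells of the 129/Ola strain. The transcripts were chosen by gene symbol, and all 8 symbols were found: Odc1, Oaz1, Oaz2, Azin1, Amd1, Sat1, Srm and Sms. They account for 26 of the 26827 transcripts and 8 of the 13218 genes listed. CIRS-seq counts the positions at which reverse transcription (RT) stops before a chemically modified base. The libraries came from a cell lysate digested with Proteinase K, so that the RNA was probed without most of its proteins. The lysate was treated with dimethyl sulfate (DMS), which methylates unpaired A and C, or with the carbodiimide CMCT, which modifies unpaired U and, less well, G. Each treated library pooled several doses, 50 to 200 mM for DMS and 10 to 50 mM for CMCT. The not treated (NT) libraries pooled the 0 mM samples, and each of the 3 groups had 2 replicates. A single library of RNA-seq from the same line, depleted of ribosomal RNA, gave the level of each mRNA without a replicate. On mm9, Odc1 lies at chr12:17551679-17558308 (+ strand), Oaz1 at chr10:80289401-80292035 (+), Oaz2 at chr9:65524355-65538107 (+) and Azin1 at chr15:38417185-38449021 (-). Amd1 lies at chr10:40007265-40021992 (-), Srm at chr4:147965612-147969102 (+), and Sat1 and Sms at chrX:151647675-151650992 and chrX:153881787-153930219 (-).

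Polyamines are small cations that bind RNA, and cells keep their level within narrow bounds, in large part through the translation and turnover of these mRNAs and proteins. Odc1 makes ornithine decarboxylase, which forms putrescine and is rate-limiting. Amd1 makes the decarboxylase that supplies aminopropyl groups, Srm makes spermidine synthase, and Sms makes spermine synthase. Sat1 acetylates spermidine and spermine for breakdown or export. Oaz1 and Oaz2 encode antizymes, which bind ornithine decarboxylase and send it to the proteasome, and Azin1 encodes an inhibitor of the antizymes. Antizyme is translated only when ribosomes shift to another reading frame at the end of a short first frame, a step that polyamines promote. Upstream open reading frames (uORFs) in the 5′ UTRs of Amd1, Odc1 and Azin1 are known sites of translational control, although the known one of Azin1 begins at a codon other than ATG and was not searched.

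Counted once per genomic position, the 6 libraries held 140186204 to 247369982 RT stops, of which the 8 genes took 19510 to 45049, or 0.0120 to 0.0231%. Tests below cover the spread between 2 libraries as deposited, and intervals cover counting error only. A bulk library cannot tell fewer cells from less RNA per cell. The 9 stem cell markers were all listed, at 11.8 to 348.9 RPKM in RNA-seq (alignments scaled by gene length and library size). Of the fibroblast and germ layer markers, Col1a1, T and Pax6 were listed, at 0.0753, 0.107 and 0.188. Their RT stops did not follow these levels, with 35208 for Col1a1, 999 for T and 93185 for Pax6 in NT replicate 1, of which 143, 912 and 1975 lay at unique positions, and Col1a1 was called lower in both treatments over all positions. How the deposited counts were divided between replicates is not given in the sources used here, so that standard errors and p-values may not reflect the spread between independent replicates. The split was not fixed at single positions. Where isoforms of the 8 genes shared a position and had the same sum over both replicates, the split between replicates still differed, always by a single count, at 13.5% (NT), 16.5% (DMS) and 16.2% (CMCT) of such positions.

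Several of these mRNAs share sequence with pseudogenes, which bears on every value below. A position was called unique when the 25 bases that follow it occur once in the genome. Over all listed transcripts, 79.7% of the positions were unique, and they held 8.85% of the RT stops. Unique positions held 93.9% of the RT stops of Azin1 and 73.2% of those of Srm. They held 33.7% for Sat1, 24.7% for Oaz2, 14% for Sms, 8.58% for Odc1, 6.48% for Oaz1 and 4.59% for Amd1. Amd2 shared 93.0% of the 25-base words of Amd1, and the pseudogene Gm9786 shared 60.4% of those of Oaz1. The pseudogene Gm9115 shared 28.7% of the words of Odc1, and Gm14680 shared 29.2% of those of Sms. Counts of Amd1, Oaz1, Odc1 and Sms are therefore uncertain as to which locus the RNA came from. The same holds for Oaz2 and Sat1. There, positions whose next 25 bases occur more than once in the genome held 68.5 and 54.9% of the RT stops.

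The stretch around the frameshift site of Oaz1 and Oaz2 was looked up first, because the listed transcripts differ from the genome there. In the lines below, taken from mm9 (NCBIM37) on the + strand, capitals mark the end of the first frame with its stop codon in the genome, and what is left of it in the transcript. In Oaz1 the bases on either side lie in the annotated CDS, and in Oaz2 they lie in exons.
Oaz1 in the genome, chr10:80291025-80291054: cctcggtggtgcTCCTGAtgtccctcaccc
Oaz1 in the listed transcript: cctcggtggtgcGAtgtccctcaccc
Oaz2 in the genome, chr9:65534064-65534093: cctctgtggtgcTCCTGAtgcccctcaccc
Oaz2 in the listed transcript: cctctgtggtgcGAtgcccctcaccc
The annotated exons of the Oaz1 transcript ENSMUST00000060987 and of the Oaz2 transcript ENSMUST00000046490 omit the same 4 bases, at 80291037 to 80291040 and at 65534076 to 65534079. This joins the 2 frames in the annotation. In the RNA-seq library, 88 alignments to the genome covered the omitted bases of Oaz1, beside 41 at 36 bases before and 82 at 36 bases after, and 24 covered those of Oaz2, beside 22 and 24.

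RT stops were almost missing just before the Oaz1 frameshift site in every library. At the 24 positions whose next 25 bases cross the gap (positions 281 to 304 of the transcript), the counts were 1 and 1 in NT, 3 and 1 in DMS, and 1 and 3 in CMCT, 10 in all. The 24 positions before them held 18 and 16, 34 and 34, and 16 and 20 RT stops, 138 in all. The next 24 positions, from the last base before the site on, held 21 and 15, 44 and 37, and 42 and 37, 196 in all. This amounts to 0.417 RT stops per position against 5.75 before and 8.17 after, and the crossing window was the lowest of the 3 in every library. In Oaz2, ENSMUST00000046490, which lacks the 4 bases, had 0 RT stops in the corresponding 24 positions, which allows up to 3 counts, and 5 in the 24 positions before them. ENSMUST00000153700, which keeps them, had 13 and 14 in NT, 7 and 1 in DMS, and 4 and 4 in CMCT, 43 in all, and 34 in the 24 positions before. The 2 transcripts thus also differed where the gap is not crossed, and the former showed too few RT stops to see a drop. In the latter, the 6 bases of the site itself had 5 RT stops, 0 and 0 in NT, 1 and 0 in DMS, and 3 and 1 in CMCT, too few to compare treatments. The 4 omitted bases of Oaz1 have no counts, since the listed transcript does not hold them. Of the site's bases that remain, the G had 3 and 3 RT stops in NT, 2 and 1 in DMS, and 1 and 2 in CMCT. The A had 0 and 0, 1 and 1, and 3 and 0. Whether the gap in the annotation accounts for the low counts before it was not tested.

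Downstream of the site, where an RNA pseudoknot that stimulates the frameshift is known, DMS produced strong RT stops at single A residues of Oaz1. Counting from 1 at the G that follows the omitted bases, A at 43 had 2 and 2 RT stops in NT, 57 and 54 in DMS, and 1 and 1 in CMCT. A at 56 had 1 and 0, 43 and 38, and 2 and 2. A at 22 had 0 and 0, 19 and 16, and 1 and 0. These residues were picked for their high DMS counts, so that their height in DMS is no test of structure. Some other A residues of the stretch had few RT stops in DMS, with 1 and 0 at 11, 0 and 0 at 23, and 2 and 1 at 39. A at 25 had 3 and 4 in NT and 20 and 18 in DMS. Any relation to the pseudoknot was not tested. Across the gene, 7.55% of the positions of Oaz1 are unique.

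**Figure D1:**
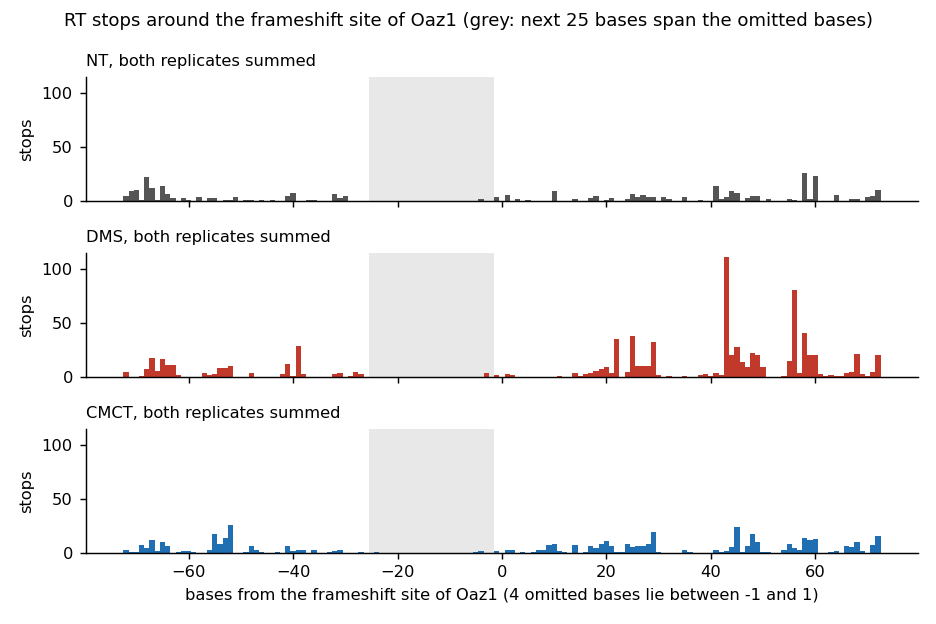
RT stops at each base of the Oaz1 transcript around the place of the omitted frameshift bases, by treatment, with the distance from the site in bases on the x axis. The shaded stretch just before the site holds 10 RT stops in 6 libraries, and the tallest bar, at base 43 after the site, is the sum of 57 and 54 RT stops in DMS. Both replicates of a treatment are summed.

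At the gene level, Odc1 and Oaz1 were the most highly covered of the 8 mRNAs, and Azin1 and Oaz2 the least. Odc1 had 14263 and 8411 RT stops in NT, 17204 and 10903 in DMS, and 20091 and 15372 in CMCT. Oaz1 had 4422 and 2699, 5483 and 4429, and 5918 and 3455. Per length, Odc1 had 25.6 RPKM of RT stops in NT (mean of 2 libraries), at percentile 78.2 of coding genes, and Oaz1 had 19.1, at percentile 75.1. Srm followed with 9.16 and Amd1 with 4.56, near the median coding gene at 4.51. Sat1 had 3.79, Sms 1.92, Oaz2 1.43 and Azin1 0.964, which is at percentile 5.80. The RNA-seq order was partly different. Odc1 (148.3 RPKM, percentile 97.5) and Oaz1 (79.7, 95.4) again came first, but Amd1 (53.2, 92.9), Azin1 (24.1, 83.3) and Oaz2 (22.8, 81.9) ranked far above their place in CIRS-seq, and Srm (12.1), Sat1 (9.12) and Sms (7.03) came last. The ranks in RT stops cover all positions, also those of the other genes. Unique positions held 93.9% of the RT stops of Azin1 but 8.85% over all listed transcripts, so that these ranks set unlike genes side by side. What sets the 2 orders apart was not tested.

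**Figure D2:**
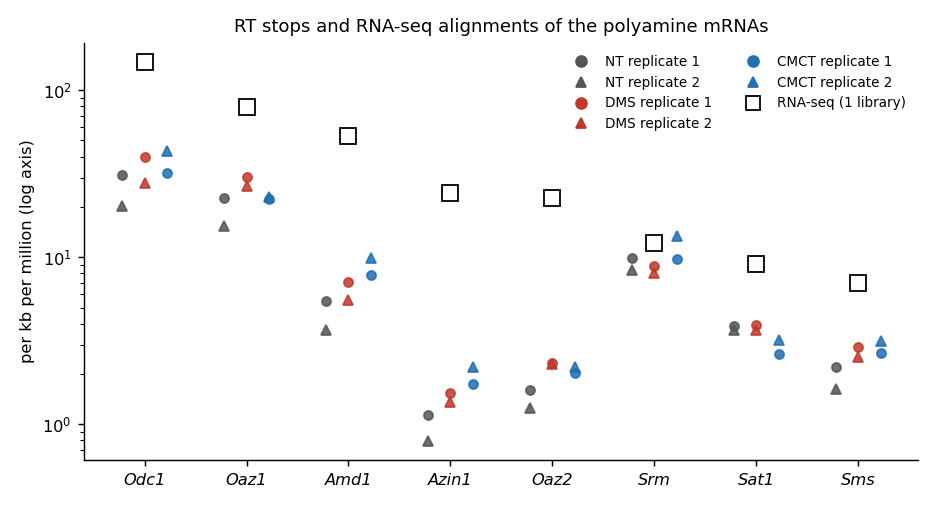
Levels of the 8 genes per length and library size (RPKM, log axis), as RT stops in each CIRS-seq library and as RNA-seq alignments (open squares). Odc1 and Oaz1 are highest on both scales, and Azin1, the lowest in RT stops in NT, has 24.1 RPKM in RNA-seq.

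No polyamine mRNA was called in DMS against NT, and only Sat1 was called in CMCT, in edgeR's quasi-likelihood test with Benjamini-Hochberg adjustment over 13216 genes. The share of all genes called was 26.4% for DMS and 29.0% for CMCT. With the replicate number as a block, Srm was also called in DMS (edgeR adjusted p = 0.0413), among 5616 genes. Azin1 was then also called in CMCT (adjusted p = 0.0264), among 5030. The count of 0 for DMS compares with 2 genes, Sat1 and Srm, at an unadjusted p under 0.05. DESeq2 called these same 2 in DMS (adjusted p = 0.0103 and 0.00239), among 5593 of all 13216 genes. The median log2 difference of the 8 genes was -0.04 in DMS, where all genes had 0.01, and 0.19 in CMCT, where all genes had 0.11. After scaling, the libraries of a treatment did not overlap those of NT for 3 of the 8 genes in DMS (65.6% of all genes) and for 5 in CMCT (64.4%).

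Srm, which makes spermidine, was the gene nearest to a call in DMS. Its level, in CPM after TMM scaling (RT stops scaled to library size), was 18.1 and 18.1 in NT, 12.4 and 10.6 in DMS, and 15.2 and 19.6 in CMCT. Both DMS libraries lay below the others. The log2 difference was -0.65 ± 0.26 (SE, 0.638-fold, edgeR adjusted p = 0.0778) in DMS and -0.05 ± 0.25 (adjusted p = 0.894) in CMCT. Azin1, the antizyme inhibitor, was the gene nearest to a call in the other direction. It had 6.74 and 5.66 CPM in NT, 7.11 and 5.88 in DMS, and 8.98 and 10.6 in CMCT, so that both CMCT libraries lay above the others. Its log2 difference in CMCT was 0.66 ± 0.24 (SE, 1.58-fold, edgeR adjusted p = 0.0590). DESeq2 called it (adjusted p = 0.00394), among 4937 of all 13216 genes. Over unique positions Azin1 gave 0.51 in CMCT and was not called (edgeR adjusted p = 0.159). Over its coding transcript, a count chosen after seeing the data, it gave 0.71 (edgeR adjusted p = 0.0316). Amd1 had a similar pattern, with 19.9 and 15.9 in NT, 19.8 and 14.5 in DMS, and 24.5 and 29.3 in CMCT, and a log2 difference of 0.59 ± 0.28 (edgeR adjusted p = 0.143). Over unique positions Amd1 gave 0.20 in CMCT (edgeR adjusted p = 0.621). In DMS it gave -0.55 there (adjusted p = 0.175) and -0.058 over all positions.

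Odc1 varied as much within groups as between them. It had 89.3 and 70.0 CPM in NT, 88.5 and 58.2 in DMS, and 79.4 and 101.1 in CMCT, with log2 differences of -0.12 ± 0.34 and 0.18 ± 0.34 (edgeR adjusted p = 0.821 and 0.722). The antizyme mRNAs gave small differences over all positions. Oaz1 had 27.7 and 22.5 in NT, 28.2 and 23.6 in DMS, and 23.4 and 22.7 in CMCT. Oaz2 had 3.37 and 3.13, 3.76 and 3.47, and 3.66 and 3.77. Sms had 15.1 and 13.2, 15.4 and 12.4, and 15.7 and 17.5. For Oaz1, Oaz2 and Sms, the log2 differences lay between -0.12 and 0.23 in both treatments, with standard errors of 0.24 to 0.27. With 2 libraries a group, differences of this size could not be told from 0. Over unique positions, Oaz1 gave -0.45 ± 0.20 in CMCT (edgeR adjusted p = 0.211), outside this range and not called.

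The call of Sat1, the acetyltransferase, rested on 2 bases, and it was lost when any 1 library of NT or CMCT was left out (edgeR adjusted p = 0.0524 to 0.143). The gene had 12.2 and 13.9 CPM in NT, 9.61 and 8.36 in DMS, and 7.17 and 8.16 in CMCT, a log2 difference in CMCT of -0.77 ± 0.24 (0.587-fold, edgeR adjusted p = 0.0287) and in DMS of -0.54 ± 0.23 (adjusted p = 0.104). At chrX:151649446-151649447, 2 bases of the retained-intron transcript ENSMUST00000138944 that lie in repeated sequence had 1156 and 1156 RT stops in NT, 464 and 464 in DMS, and 395 and 395 in CMCT. They made up 59.1 and 69.3% of the gene's counts in NT and 21.8 to 31.8% in the treated libraries. Without them the gene had 799 and 513, 1405 and 1103, and 1420 and 846. Counted over the coding transcript alone, which does not hold them, the log2 difference was 0.72 in DMS (edgeR adjusted p = 0.0465) and 0.42 in CMCT (adjusted p = 0.204). Over unique positions it was 0.48 (adjusted p = 0.163) and 0.13 (adjusted p = 0.701). The direction was thus reversed in both treatments, and the fall of the gene's count was not seen in its coding transcript.

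Sat1 has an alternative exon that introduces a premature stop and is known to be skipped when polyamines are high. This exon, 110 bases at chrX:151649664-151649773 on the - strand and annotated in ENSMUST00000152463, had 0 and 0 RT stops in NT, 3 and 4 in DMS, and 0 and 1 in CMCT. At 0.0727 RT stops per base it lay far under the exon before it (1.64) and the exon after it (6.22). In RNA-seq the difference was smaller, with 72.7 alignments per kb against 440 and 363, from 8, 37 and 37 alignments. The intron sequence that ENSMUST00000138944 retains next to it had 0.146 RT stops per base and 43 alignments per kb, so that the RT stops on the exon did not exceed those of this intron. A change of the exon with treatment was not detectable at this depth.

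The share of RT stops at A was higher in both DMS libraries than in both NT libraries for all 8 mRNAs. The medians over coding genes, given below, differed in the same direction. The share of coding genes that separate in this way was not counted. In Odc1 it was 10.1 and 12.4% in NT and 28.3 and 46.0% in DMS. In Oaz1 it was 9.70 and 9.30% against 28.5 and 36.3%, in Amd1 12 and 14.9% against 33.1 and 45.4%, and in Azin1 16.0 and 18.2% against 37.1 and 46.3%. Srm had 7.49 and 7.85% against 25.2 and 38.1%, and Sat1 had 15.7 and 19.9% against 37.9 and 53.5%. DMS replicate 2 was the higher of the pair in all 8 genes, as in the median coding gene (28.7 and 38.5% in DMS, 12.3 and 13.9% in NT). The share at C, which DMS also methylates, was above both NT libraries in both DMS libraries in none of the 8 genes. How often this holds over all coding genes was not counted. In Odc1 it was 36.7 and 29.4% in NT and 32.1 and 23.6% in DMS, in Oaz1 44.5 and 35.3% against 35.5 and 27.2%, and in Srm 47.8 and 43.8% against 42.2 and 34.4%. The median coding gene had 38.9 and 32.3% in NT and 33.6 and 27.9% in DMS.

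For U, the base that CMCT modifies, the libraries differed by less. In Oaz2 it was 41.6 and 47.2% in NT and 56.3 and 55.8% in CMCT, in Sms 33.8 and 37.2% against 47.6 and 50.5%, and in Azin1 38.2 and 42.0% against 52.8 and 52.5%. In Srm the libraries differed little, with 33.8 and 35.9% against 37.7 and 37.0%. Oaz1 was the only member whose libraries overlapped, with 32.6 and 41.1% in NT and 41.2 and 39.5% in CMCT. The share of all coding genes whose libraries overlap at U was not counted. The median coding gene had 31.5 and 33.2% in NT and 40.3 and 41.1% in CMCT.

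**Figure D3:**
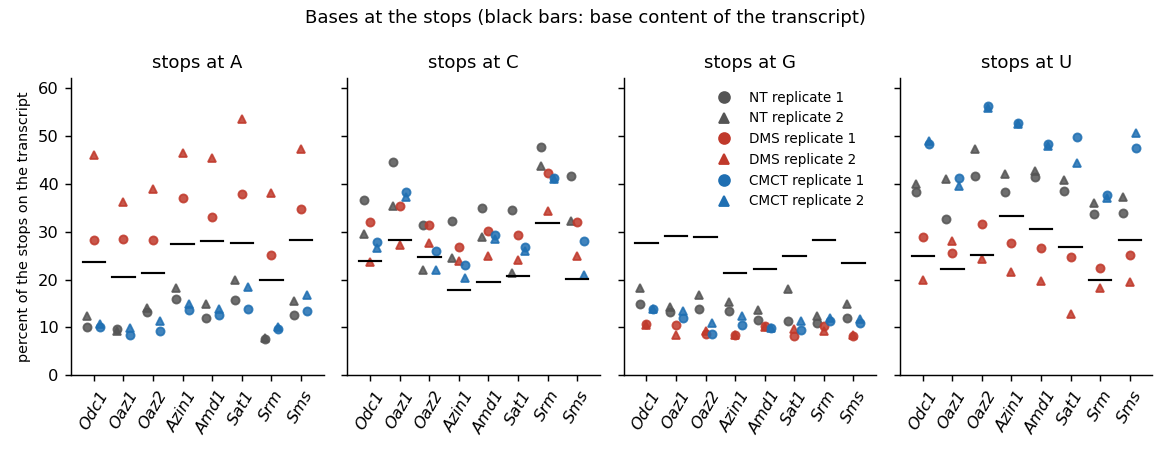
Percent of the RT stops of each gene that fall on A, C, G and U, by treatment, 1 point per library. Black bars mark the base content of the transcript. In the panel of A the DMS points lie above the NT points in all 8 genes. In the panel of U the CMCT and NT points overlap in Oaz1.

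The strongest single positions differed in their response. In the CDS of Odc1, U at transcript position 606 (chromosome 12, 17554532) had 437 and 192 RT stops in NT, 240 and 126 in DMS, and 696 and 526 in CMCT, so that it was already strong without treatment. In Oaz1, A at 598 (chromosome 10, 80291488) had 6 and 7 in NT, 107 and 98 in DMS, and 7 and 7 in CMCT, and was high in DMS alone. In Azin1, U at 1070 had 11 and 8, 6 and 3, and 30 and 25, above NT in CMCT before any scaling to depth. The whole Azin1 transcript had 911 and 517 RT stops in NT, 1097 and 829 in DMS, and 1893 and 1245 in CMCT. All positions named here were picked for their high counts, so that their height is no test of a response. Counts at single positions followed each other between replicates best in Odc1, with Pearson's r on log2(count + 1) of 0.872 in NT, 0.816 in DMS and 0.921 in CMCT, and least in Oaz2 in NT and DMS (0.574 and 0.490) and in Azin1 in CMCT (0.681). These are correlations across positions of a transcript, which are not independent.

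Among the 7 mRNAs with an annotated CDS, the 5′ UTRs ranged from 104 to 590 bases. Azin1 had 590, Odc1 410, Sms 334 and Amd1 328, which placed them at percentiles 94.2, 86.4, 80.8 and 80.1 of coding genes, whose median was 155. Sat1 had 177, Srm 117 and Oaz1 104. The listed transcripts of Oaz2 have no annotated CDS, so that it has no regions. Most RT stops of Odc1 fell in the CDS, 78.9% ± 1.21 in NT (SD, n = 2), although the CDS is 54.4% of the length. The 3′ UTR held most of the RT stops of Amd1, 51.4% ± 1.61. Sms had 68.2% ± 4.46 of its RT stops in a CDS that makes up 29.6% of its length and has no unique position.

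The 5′ UTR share was far above the share of the length in Oaz1 and far below it in Srm. Over 6375 genes with at least 100 RT stops in NT, the 5′ UTR density in NT had a median of 0.528 times that of the transcript. The interquartile range was 0.0205 to 1.51. Srm at 0.205 and Odc1 at 0.520 lay inside this range, and Oaz1 at 2.49 lay above it. For the members, the last 25 bases were left out of the length. Oaz1 had 22.5 and 27.1% of its RT stops in the 5′ UTR in NT, 21.9 and 25.7% in DMS, and 21.7 and 17.5% in CMCT, for 9.71% of the length. Bases 29 and 30, both U, held 52.6% of these RT stops, with 370 and 203 in NT at base 29 and 130 and 246 at base 30. Leaving both out brought the mean share to 12.6% (NT), 13% (DMS) and 10.6% (CMCT). The strongest position of Oaz2, a unique U, was also base 30 of its transcript, with 20 and 48 RT stops in NT, 7 and 17 in DMS, and 12 and 12 in CMCT. Srm, whose 5′ UTR is 77.8% G and C, had 1.82 and 1.84% in NT, 2.34 and 2.61% in DMS, and 1.78 and 1.36% in CMCT, for 8.74% of the length. Odc1 had 9.06 and 7.87%, 8.52 and 6.61%, and 7.72 and 7.67%, for 16.1% of the length. Amd1 had 14 and 10.8%, 11.8 and 10.8%, and 10.5 and 7.84%, for 10.2%.

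In RNA-seq, the 5′ UTR held a smaller share of the alignments than of the RT stops in NT in all of these mRNAs but Sat1. The share of alignments was 6.97% in Oaz1 (95% Wilson interval 5.86 to 8.27), 9.19% in Azin1 (8.11 to 10.4) and 1.25% in Sms (0.678 to 2.28), from 120, 227 and 10 alignments. Sat1 had 18.8% (15.3 to 22.8), Odc1 1.09% (0.881 to 1.35) and Srm 0.257% (0.0454 to 1.44). The intervals cover counting error only.

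The 5′ UTR of Azin1 held a smaller share of the RT stops in CMCT than in NT, and that of Sms a smaller share in both treatments. In Azin1 the 5′ UTR held 23.3 and 21.3% in NT, 17.2 and 14.1% in DMS, and 11 and 11.7% in CMCT. In Sms it held 11.8 and 14.2%, 5.84 and 6.57%, and 5.97 and 4.19%. All treated libraries lay below both NT libraries in each mRNA. In a test of a region against the rest of its mRNA (edgeR, diffSpliceDGE, Benjamini-Hochberg adjustment over 15649 regions), the 5′ UTR of Azin1 fell by 0.99 on the log2 scale in CMCT (adjusted p = 0.0109) and that of Sms by 1.35 (adjusted p = 0.00107). In DMS, Sms fell by 1.07 (adjusted p = 0.0115), and Azin1 gave -0.50 (adjusted p = 0.364). These 3 were the only calls among the 21 regions of the members, 1 in DMS and 2 in CMCT, and the share of all regions called was 13.6% in DMS and 18.1% in CMCT. On simulated data this test called more unchanged regions than its threshold allows, so that its adjusted p-values may be too small. A lower 5′ UTR was common in all genes, with 13.3% of the 5′ UTRs tested called lower in DMS and 25.7% in CMCT.

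The call of Azin1 was lost without CMCT replicate 1 or 2 or NT replicate 1 (edgeR adjusted p up to 0.120), that of Sms in DMS without DMS replicate 1 or NT replicate 2 (up to 0.135), and that of Sms in CMCT without CMCT replicate 2 (0.0738). In the most covered transcript, another isoform without a 3′ UTR, Azin1 gave -0.62 (adjusted p = 0.260) and Sms 0.30 in both treatments (adjusted p = 0.935 and 0.895). Over unique positions, the 5′ UTR of Azin1 was again called in CMCT, with a log2 value of -1.07 (edgeR adjusted p = 0.0175). The CDS of Sms has 0 unique positions, so that unique positions set its 5′ UTR against its 3′ UTR alone, which is another comparison than the one above. It gave -1.95 in CMCT (adjusted p = 0.00488) and -1.17 in DMS (adjusted p = 0.0698). Over unique positions, 1.5% of all regions were called lower in DMS and 5.85% in CMCT. Among RT stops at U alone, the base that CMCT modifies best, Azin1 had 21.3 and 22.1% in its 5′ UTR in NT and 12.8 and 12.4% in CMCT. U made up 29.3% of the bases of this 5′ UTR and 30.4% of those of the CDS. In Sms, 14.4% of the 5′ UTR bases and 25.0% of the CDS bases were U, and the 5′ UTR held 3.57 and 8.14% of the RT stops at U in NT and 2.26 and 0.615% in CMCT. Both CMCT libraries thus lay below both NT libraries among RT stops at U in each mRNA. Among RT stops at A and C, the share in the Sms 5′ UTR was 14.3 and 19.0% in NT and 6.71 and 7.15% in DMS. These 2 bases are pooled here, although the share at A was higher in DMS and that at C was not. In Sms, A made up 12.9% of the 5′ UTR bases and 30.1% of the CDS bases, and C 42.5 and 18.9%. Whether this base content accounts for the lower share in DMS was not tested.

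The 5′ UTR of Sat1 held a larger share of the RT stops in all treated libraries than in NT. It held 14.1 and 12.8% in NT, 21.6 and 24.8% in DMS, and 17.3 and 18.7% in CMCT. The log2 difference was 0.76 in DMS (edgeR adjusted p = 0.127) and 0.40 in CMCT (adjusted p = 0.591), neither past the threshold. Odc1, Oaz1, Amd1 and Srm gave values of -0.46 to 0.44 in their 5′ UTRs, and none was called. Over unique positions, which are 30 of the Sat1 5′ UTR and 25 of that of Oaz1, Sat1 gave 1.72 in DMS (edgeR adjusted p = 0.0560) and 1.05 in CMCT, and Oaz1 -0.85 in DMS, where it had -0.063 over all positions, and -0.65 in CMCT. In the 3′ UTRs, the value nearest to a call was that of Oaz1 in CMCT, 0.69 (edgeR adjusted p = 0.0503).

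**Figure D4:**
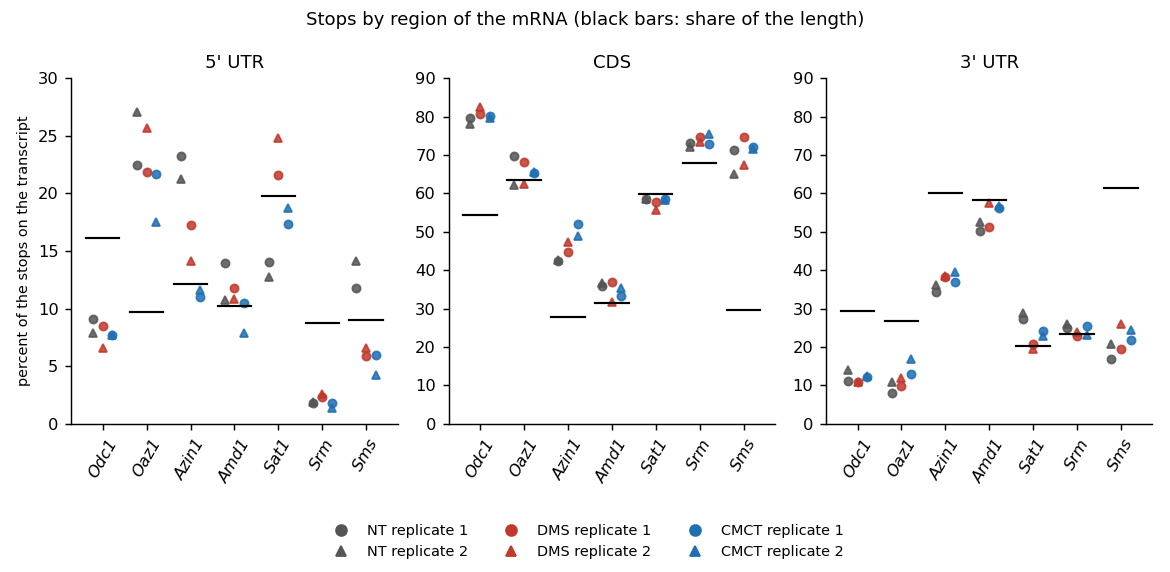
Percent of the RT stops of a transcript in its 5′ UTR, CDS and 3′ UTR, 1 point per library, with black bars at the share of the length. In the 5′ UTRs of Azin1 and Sms the CMCT points lie below the NT points, and in Sat1 the treated points lie above them.

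The uORFs of the 5′ UTRs were examined next, and the shorter ones that lie wholly upstream in the mRNAs with known uORF control are given here to place the counts. They come from mm9, are written in the sense of the mRNA, and capitals mark the ATG and the stop codon. All lie in exons and in the 5′ UTR.
Odc1, chr12:17551727-17551753, + strand: ATGacgacgtgctcggcgtataagTAG
Azin1, chr15:38444237-38444260, - strand: ATGatagggggttccatctccTAA
Azin1, chr15:38431262-38431291, - strand: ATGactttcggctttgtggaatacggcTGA
Amd1, chr10:40021961-40021981, - strand: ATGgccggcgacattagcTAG
The uORF of Amd1, which has 6 codons before its stop and starts at base 12 of the mRNA, had 93 and 28 RT stops in NT, 54 and 14 in DMS, and 77 and 31 in CMCT. It held 21.0 and 13.6% of the 5′ UTR's RT stops in NT, 11.9 and 4.76% in DMS, and 11.9 and 8.88% in CMCT, for 6.40% of its length. Both NT libraries lay above the treated ones. None of its positions is unique, so that its counts cannot be assigned to a single locus.

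The Odc1 uORF shown, at bases 49 to 75, had few RT stops. It had 9 and 9 in NT, 4 and 2 in DMS, and 1 and 3 in CMCT. This was 1.04 per base, where the whole 5′ UTR had 16.1. All 27 of its positions are unique, against 147 of 410 in the 5′ UTR, so that these densities are not of like positions. Bases 1 to 50 and 51 to 100 had 0.38 and 4.3 per base. The other uORF of Odc1, at bases 263 to 295, has 10 codons before its stop. It had 399 RT stops, or 12.1 per base. Which of the 2 is the known site of control was not examined. In Azin1, the uORF of 24 bases had 27 RT stops and the one of 30 bases, which ends just before the start codon, had 59, or 1.97 per base where the 5′ UTR had 1.66. The Sms 5′ UTR has 4 ATGs and that of Sat1 has 2. Oaz1 and Srm have none.

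RT stops were unevenly placed along the longer 5′ UTRs. In Odc1 the first 50 bases had 19 RT stops in the 6 libraries and bases 351 to 400 had 2851, or 0.38 and 57.0 per base. In Sms the first 200 bases had 0.04 to 0.24 RT stops per base, and bases 301 to 334 had 11.7. Bases 201 to 250 of Sms lie inside its uORF of 210 bases. They had 57 and 50 RT stops in NT, 19 and 36 in DMS, and 31 and 11 in CMCT. Bases 301 to 334 had 91 and 52, 71 and 28, and 104 and 52. These counts are not scaled to depth. The whole transcript had 1660 and 925 in NT, 1987 and 1340 in DMS, and 2881 and 1932 in CMCT. Set against these totals, all treated libraries lay below both NT libraries in both windows. Within the 5′ UTR, DMS replicate 2 had 40.9% of its RT stops at bases 201 to 250, above NT (29.1 and 38.2%). The other treated libraries lay below NT there. In Amd1 the density was highest in the first 50 bases, at 13.8 per base, and lowest at bases 151 to 200, at 0.9 per base, a stretch with 12% G and C. Azin1 varied least, between 0.66 and 3.52 per base. In the Sms 5′ UTR, 71.9% of the bases had no RT stop in any library, beside 58.3% in Azin1, 35.4% in Odc1 and 24% in Oaz1.

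**Figure D5:**
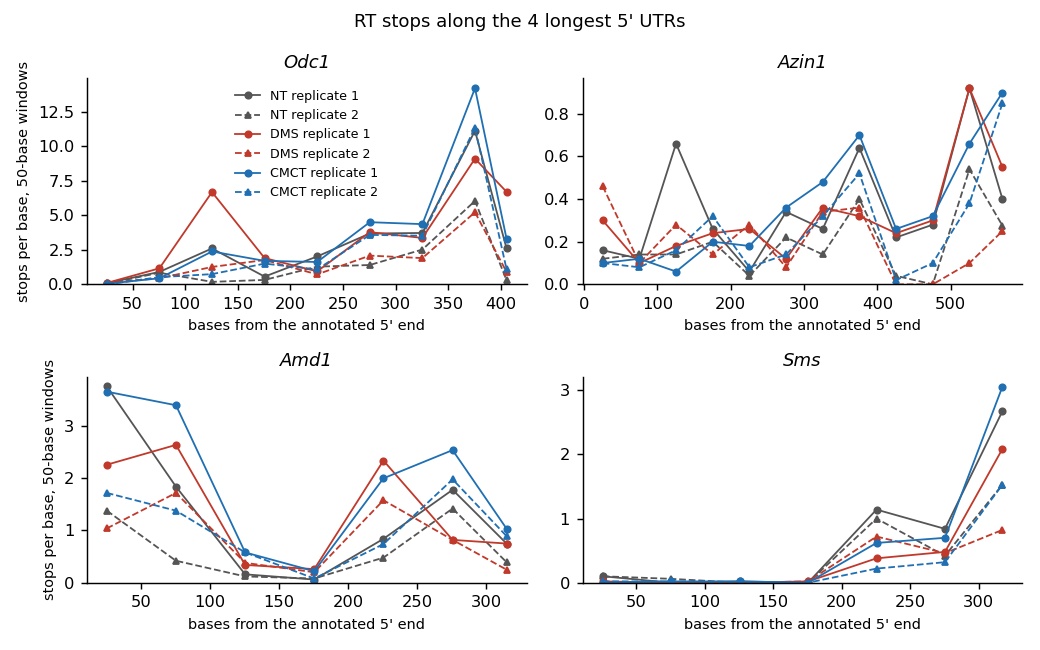
RT stops per base in windows of 50 bases along the 4 longest 5′ UTRs, by treatment, with the distance from the start of the transcript on the x axis. Over all libraries, Odc1 has 0.38 RT stops per base in its first window and 57.0 at bases 351 to 400, Sms has at most 0.24 in its first 200 bases and 11.7 at bases 301 to 334, and Amd1 has its lowest value at bases 151 to 200.

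Around the start and stop codons, in windows of 15 bases on each side, the members differed in direction. The start codon of Sat1 had 1.36 and 1.31 times the mean density of its transcript in NT, 2.86 and 3.71 times in DMS, and 2.28 and 2.67 times in CMCT, and both treatments lay above NT. The start codon of Sms went the other way in CMCT, with 4.79 and 6.53 times in NT, 4.84 and 1.75 in DMS, and 3.53 and 1.80 in CMCT. The start codon of Oaz1 was low in all libraries, at 0.22 to 0.53 times. The stop codon of Srm was high in all, with 3.38 and 3.82 times in NT, 2.43 and 2.45 in DMS, and 3.04 and 2.80 in CMCT. That of Azin1 had 8.54 and 2.84 times in NT, 6.02 and 5.31 in DMS, and 3.95 and 1.65 in CMCT. Its window held only 10 to 53 RT stops a library. That of Odc1 was 2.81 and 1.88 times in NT, 3.16 and 2.19 in DMS, and 3.17 and 2.19 in CMCT. That of Amd1 was low, at 0.17 to 0.74 times.

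Reactivity sets the treated counts of a base against NT within a transcript and is scaled from 0 to 1. It is 0 by construction at a base without RT stops in the treated libraries, so that the mean of a region also follows its coverage. Mean reactivity was higher in the CDS than in both UTRs in Odc1 (0.276 in the 5′ UTR, 0.426 in the CDS and 0.255 in the 3′ UTR), in Azin1 (0.269, 0.406 and 0.214) and in Sms (0.120, 0.478 and 0.213). In the same order, the share of bases without any RT stop was 35.4, 2.60 and 33.7% in Odc1, 58.3, 48 and 73% in Azin1, and 71.9, 28.7 and 68.4% in Sms, lowest in the CDS in each. Differences in coverage and in reactivity cannot be told apart in these means. The medians over coding genes were also highest in the CDS, at 0.217 in the 5′ UTR, 0.348 in the CDS and 0.232 in the 3′ UTR. A higher CDS is thus not particular to these mRNAs. The mean of the Sms 5′ UTR, where 71.9% of the bases are at 0 for want of RT stops, lay under the interquartile range of the 4430 genes measured (0.140 to 0.291, median 0.217). The CDS was also the highest region in Srm (0.184, 0.390 and 0.368) and in Oaz1 (0.317, 0.397 and 0.391), little above the 3′ UTR. Amd1 had 0.292, 0.345 and 0.362. Sat1 had its highest mean in the 5′ UTR, with 0.451 there, 0.336 in the CDS and 0.329 in the 3′ UTR. The 5′ UTR mean of Sat1 lay above the interquartile range of 5′ UTRs, as did those of Oaz1 and, narrowly, Amd1. Taken from each replicate alone, the mean was 0.400 to 0.464 in the Sat1 5′ UTR and 0.104 to 0.108 in that of Sms. Azin1 was less stable, with 0.206, 0.327 and 0.165 in its 3 regions from replicate 1 and 0.105, 0.194 and 0.101 from replicate 2, where it has no reactivity to DMS because its 90th percentile is 0. With 5 in place of 1 added to the counts, the 3′ UTR of Odc1 had 0.170 and its 5′ UTR 0.209, and the order of the regions named here stayed the same for Odc1, Azin1 and Sms. No test was made on these means.

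The rest of the polyamine pathway was represented by 12 of the 23 symbols in a list of enzymes, carriers and eIF5A-related genes. None was called higher in either treatment, and 4 were called lower in DMS (12.5% of all genes) and 3 in CMCT (13.9%). In DMS these were Mat2b and Mat2a, subunits of the enzyme that makes S-adenosylmethionine, with log2 differences of -1.98 and -1.05 (edgeR adjusted p = 0.00162 and 0.00851), the amino acid carrier subunit Slc3a2 with -1.75 (adjusted p = 0.00505), and Adc, the older symbol of the antizyme inhibitor Azin2, with -0.78 (adjusted p = 0.0383). In CMCT they were Mat2b with -1.90 (adjusted p = 0.00191), Slc3a2 with -1.87 (adjusted p = 0.00382) and the polyamine exporter of lysosomes Atp13a2 with -1.72 (adjusted p = 0.0174). The median of the 12 genes was -0.52 in DMS and 0.03 in CMCT. Over unique positions, 2 genes were called lower in DMS (2.79% of all genes), Mat2a with -1.02 (adjusted p = 0.0426) and Adc with -1.04 (adjusted p = 0.0495), and none in CMCT (1.27% of all genes). In DMS and CMCT, Mat2b then gave -0.081 and 0.30, Slc3a2 0.36 and -0.072, and Atp13a2 0.54 and 0.26 (edgeR adjusted p = 0.497 in CMCT), so that the sign turned for Mat2b in CMCT, for Slc3a2 in DMS and for Atp13a2 in both, which had -0.66 in DMS over all positions.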

How the data were processed

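The authors deposited raw RT stop counts per transcript position for each CIRS-seq library, without normalization, and RNA-seq as single alignments, whose number was used. The score column of these alignments, as deposited, was 0 throughout and was not a measure. The paper gives the mapping target as mm9 with variants of E14 ESCs. The submitters' processing notes name Bowtie 1.0.0, TopHat2 2.0.6, FastQC 0.10.1 and bedtools 2.17.0. How reads with several places were treated is not given in the sources used here. Replicates are given as biological by the paper.

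Of 26827 listed transcripts, 26792 were found in GENCODE vM1 on mm9. Each genomic position was counted once per gene, with the larger count of its isoforms. Regions come from 1 coding transcript per gene, the one with the longest CDS. Gene counts went into edgeR 4.0.16 under R 4.3.3 (filterByExpr, TMM, quasi-likelihood test, threshold 0.05), in 1 fit over 6 libraries. Region shares were tested with edgeR's diffSpliceDGE. Both were tested on simulated data, where the region test called more unchanged regions than its threshold allows. DESeq2 1.42.0 was an alternative. For reactivity, 1 was added to the counts, the transcript was scaled to its mean, the log2 ratio of treated over NT was set to 0 where negative or without treated RT stops, Winsorised at the 90th percentile, and the larger of DMS and CMCT was kept. Of the RNA-seq, 20149949 of 31857551 alignments (63.3%) were counted for 1 gene, and alignments across splice junctions were absent. Shares of alignments have 95% Wilson intervals. Python 3.11.15, numpy 2.4.6, pandas 2.3.3, scipy 1.17.1, numba 0.67.0 and matplotlib 3.10.9 were used. Every member is named, and pathway genes are named where they passed the test. The members, lists and tests were chosen with earlier results of these data known.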

Additional observations from a re-analysis of the deposited data

How the results depend on the processing

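Over all genes, 3485 were called in DMS and 3827 in CMCT, and 2131 and 2825 regions. In DMS the count of genes was 5593 with DESeq2, 1269 over 1 coding transcript per gene and 1082 over unique positions, and 1719 to 3130 when 1 replicate was left out. In CMCT it was 1649 over coding transcripts, 658 over unique positions and 1600 to 4402 with 1 replicate left out. The regions were 377 and 1081 over unique positions, and 890 to 2457 in DMS and 1158 to 3162 in CMCT with 1 replicate left out. The count over coding transcripts was chosen after seeing the data. Fewer genes were tested over coding transcripts (7034) and over unique positions (11479) than over all positions (13216). Over unique positions 14031 regions were tested, beside 15649 over all positions. The counts called are thus out of unlike totals.

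The replicate numbers were not taken to pair the samples, since same-numbered libraries did not deviate together in every pair of groups. Deviations from the group means correlated by 0.554 for NT and DMS, 0.0107 for NT and CMCT and -0.107 for DMS and CMCT over 13216 genes. With the replicate number as a block, 5616 genes and 2551 regions were called in DMS and 5030 and 3182 in CMCT. Srm in DMS (edgeR adjusted p = 0.0413), Azin1 in CMCT (0.0264) and the Oaz1 3′ UTR in CMCT (0.0149) then passed the threshold.

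Over the coding transcript, the log2 difference was 0.72 in DMS and 0.42 in CMCT for Sat1, 0.022 in DMS for Amd1 and 0.023 in DMS for Sms. Over unique positions it was 0.48 and 0.13 for Sat1, 0.049 in DMS for Sms, and -0.18 and -0.084 in CMCT for Odc1 and Oaz2. In the most covered transcript, which is another isoform without a 3′ UTR, the Sms 5′ UTR gave 0.30 in DMS and 0.30 in CMCT, and that of Odc1 gave 0.085 in CMCT over unique positions. With 1 replicate left out, the DMS value ranged from -0.45 to 0.068 for Odc1, -0.095 to 0.21 for Oaz1, -0.077 to 0.20 for Azin1, -0.30 to 0.11 for Amd1 and -0.19 to 0.078 for Sms. The CMCT value ranged from -0.26 to 0.038 for Oaz1 and -0.25 to 0.12 for Srm. For 5′ UTRs in DMS it ranged from -0.36 to 0.0039 for Odc1, -0.20 to 0.077 for Oaz1 and -0.30 to 0.075 for Amd1, and the gene value of Odc1 in CMCT from -0.0041 to 0.37. Of these, the values called as reported were those of Sat1 in CMCT and of the Sms 5′ UTR in both treatments.

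The call of Sat1 in CMCT was lost with any 1 library of NT or CMCT left out (edgeR adjusted p = 0.0524 to 0.143). The 5′ UTR calls gave 0.0411 to 0.120 for Azin1 in CMCT, 0.0207 to 0.135 for Sms in DMS and 0.00427 to 0.0738 for Sms in CMCT. The Azin1 5′ UTR gave -0.62 (adjusted p = 0.260) in its most covered transcript. Of the values of mean reactivity with another pseudocount or from a single replicate, 40 moved by more than the spread between replicates and 23 did not. The causes were not tested. A left-out library leaves a group with a single sample, assumed to vary like the others.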
